A study of Rattus norvegicus with 9 samples.

Results

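Urocortin 2 (Ucn2), urotensin 2 (Uts2) and stanniocalcin 1 (Stc1), which encode 3 secreted signalling proteins, were followed in the adrenal medulla of the rat, together with the receptors of the corticotropin-releasing factor (CRF) family, Crhr1 and Crhr2. The 5 genes were selected on their measured intensities in these 3 groups, and every probe set annotated to exactly 1 of their symbols was taken, whatever its level. The rule found 6 probe sets, for 3 of the 5 genes, among 20826 probe sets with 1 symbol that cover 14217 genes. Ucn2 had 2 probe sets, Uts2 had 1 and Stc1 had 3. Crhr1 and Crhr2 were not analysed here, because no probe set carried either symbol alone. Adult rats of 280 to 320 g were either left unstressed (Control), immobilized once for 2 h (1XIMO) or immobilized for 2 h a day on 6 days (6XIMO), and both medullae were taken after the last session. Each group had 3 arrays. The labels give no strain, sex, allele or drug for any group. They do not say whether each array holds RNA of a separate animal or of pooled animals, so the p-values measure only the spread between these samples, which may be technical. The organism field names the rat, and the fields in which mouse or brain appears were set aside.

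Ucn2 is a peptide of the CRF family that binds the type 2 CRF receptor selectively, and this receptor acts mainly through Gs, adenylyl cyclase and cAMP. Uts2 is a cyclic peptide that constricts vessels and acts through Uts2r, a receptor coupled to Gq and phospholipase C. Stc1 is a glycoprotein hormone first known in fish, where it limits the uptake of calcium. In mammals it acts locally, and stanniocalcins inhibit the protease PAPP-A, which frees insulin-like growth factors (IGFs) from their binding proteins. Chromaffin cells of the medulla make catecholamines and store neuropeptides beside them.

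The promoters of Ucn2 and Uts2, from the RefSeq table (assembly GRCr8), are shown because both were measured here and differed from Control in the same direction. Each line gives the 250 bases before the annotated start, on the plus strand, with matches to the motifs searched in capitals. The Ucn2 stretch is chr8:118515861-118516110 and the Uts2 stretch is chr5:166733421-166733670.
Ucn2: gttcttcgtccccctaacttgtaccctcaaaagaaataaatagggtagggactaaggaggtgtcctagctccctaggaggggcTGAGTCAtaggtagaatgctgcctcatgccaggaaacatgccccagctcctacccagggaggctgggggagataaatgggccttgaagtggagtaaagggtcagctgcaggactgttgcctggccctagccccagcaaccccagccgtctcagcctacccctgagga
Uts2: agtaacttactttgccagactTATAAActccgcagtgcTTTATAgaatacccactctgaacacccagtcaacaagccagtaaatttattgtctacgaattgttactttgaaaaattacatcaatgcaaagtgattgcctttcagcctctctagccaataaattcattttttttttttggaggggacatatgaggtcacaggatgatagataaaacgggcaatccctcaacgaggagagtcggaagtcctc
The capitals in Ucn2 are 1 match to the AP-1 letters TGAGTCA, at 167 to 161 bases before the start. AP-1 letters, TGAGTCA or its reverse complement TGACTCA, occurred in 4.53% of 27457 promoters of 300 bases (250 before to 50 after the start). The capitals in Uts2 are 2 matches to TATAAA, the first on the printed strand and the second on the other, far before the start. TATAAA occurred in 14.3% of promoters. In the 50 bases after the start, not printed, Uts2 held 1 match to TGACG, the core of the cAMP response element, on the other strand (bases 33 to 37). That core occurred in 22% of promoters. Neither promoter held the full element TGACGTCA (1.91% of promoters), the hypoxia core ACGTG (19.7%) or the glucocorticoid response element, searched by its consensus palindrome, which stood in 0.00728% of promoters. Both strands were searched, and a match describes letters only.

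The 6XIMO arrays stood apart in the array controls. The actin 3′/5′ ratio, which rises when the labelled RNA lacks its 5′ part, was 1.447 to 2.155 in Control, 1.57 to 1.992 in 1XIMO and 6.106 to 230.6 in 6XIMO, with the highest value on 6XIMO replicate 1. That array correlated with the others at 0.604 to 0.730 across probe sets, and the other 8 with one another at 0.854 to 0.983. Its lowest intensity was 25.88, against at most 1.81 elsewhere. The GAPDH 3′/5′ ratio was 1.097 to 1.41 in Control, 1.132 to 1.316 in 1XIMO and 1.789 to 5.016 in 6XIMO. Spike-in controls, which do not come from the tissue, were also brighter on all 6XIMO arrays. Their mean log2 level was 12.04 to 13.08 in Control, 11.96 to 13.46 in 1XIMO and 14.04 to 17.52 in 6XIMO. The summed intensity of the chromaffin markers (10 of 11 measured) was 337000 to 517000 in Control, 330000 to 640000 in 1XIMO and 1110000 to 2380000 in 6XIMO. That of the adrenal cortex markers (9 of 11 measured) was 332000 to 477000, 291000 to 713000 and 1010000 to 1960000. No value on any array was 0. Of the chromaffin markers, 0 passed the threshold in 1XIMO, where 4.2% of all genes tested rose and 5.31% fell, and 5 rose and 0 fell in 6XIMO, where 9.36% rose and 14.9% fell. Of the cortex markers, 1 rose in 1XIMO (Scarb1, named after its value was seen), and 6 rose and 1 fell in 6XIMO. Of the Schwann, endothelial, leukocyte, fibroblast, erythrocyte, adipocyte and ganglion neuron markers 0 passed in 1XIMO. In 6XIMO 1 Schwann marker (S100b), 2 endothelial markers (Kdr and Tie1) and 2 leukocyte markers (Aif1 and Csf1r) fell and 1 fibroblast marker (Pdgfra) rose, all named after their values were seen, and 0 of the other 3 lists passed. With quantile normalization the 6XIMO counts were 2 and 0 for chromaffin markers, and 2 and 1 for cortex markers, where 9.19% of all genes rose and 8.42% fell. With median centring they were 3 and 0, and 5 and 1, where 4.09% rose and 2.01% fell. Without 6XIMO replicate 1 they were 7 and 0, and 6 and 1, where 17.6% rose and 30.7% fell. Whether these shifts or the RNA quality have a part in the 6XIMO values below was not tested. In a dissected tissue, fewer cells of a type and less RNA per cell cannot be told apart.

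Ucn2, Uts2 and Stc1 were all higher after 1 session than in Control, and their main probe sets were still high after 6. The members were chosen with these values known, so their levels, log2 fold changes and standard errors (SE) are a description with no test. Without overlap between the groups, 6 of 6 probe sets lay higher in 1XIMO than in Control, where 11.4% of all 20826 probe sets did. The count for 6XIMO against Control was 5 of 6, where 12.8% of all did. Only 1 of 6, a probe set of Ucn2, lay lower in 6XIMO than in 1XIMO, where 16.8% of all did. Over the 11287 genes tested, the median log2 fold change was -0.13 for 1XIMO and -0.23 for 6XIMO against Control. Both stressed groups were set against the same 3 Control arrays.

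**Figure D1:**
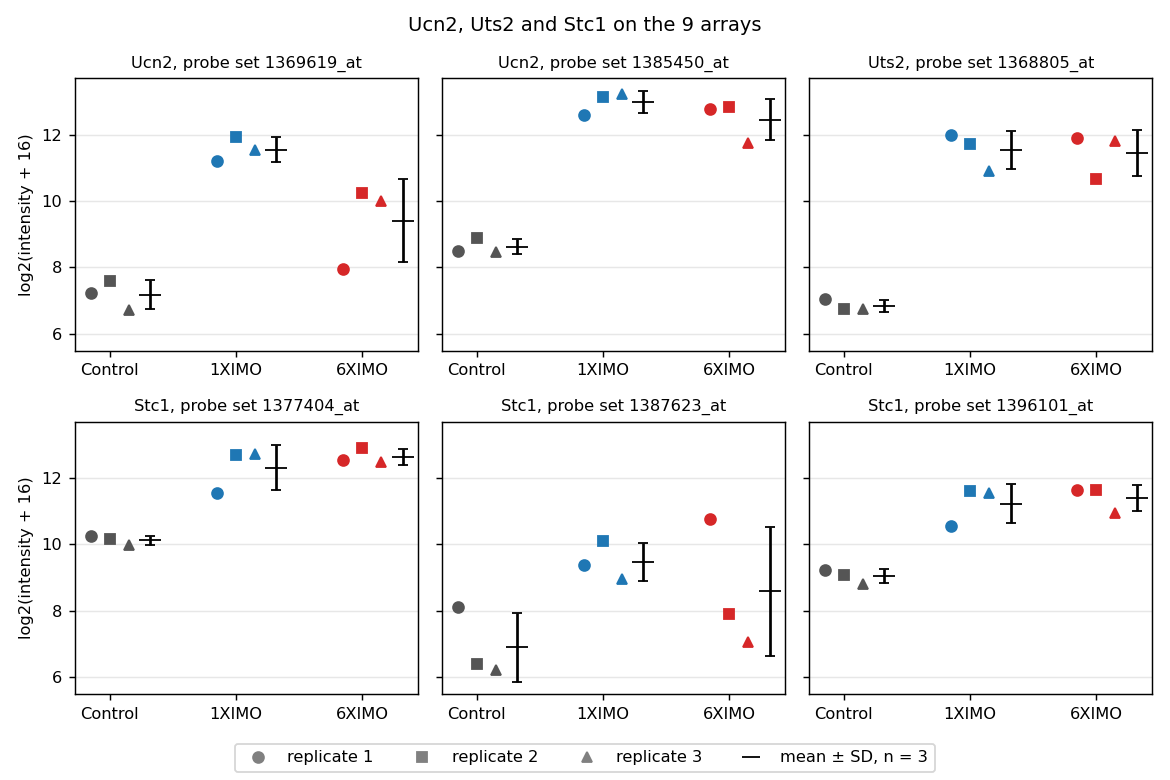
Level of each Ucn2, Uts2 and Stc1 probe set on the 9 arrays, as log2(intensity + 16) on a shared vertical axis. Points are arrays, symbols mark the replicate number, and the black marks give the mean ± SD (n = 3). All 1XIMO points lie above all Control points in the 6 panels, and the 6XIMO points of Ucn2 1369619_at and Stc1 1387623_at are spread widely.

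Ucn2 was read by 2 probe sets, which gave nearly the same difference from Control after 1 session and unlike values after 6. Probe set 1385450_at, designed on an expressed sequence tag and the brighter of the 2, had intensities of 347.5, 463 and 340.4 in Control replicates 1 to 3. It read 6261, 9153 and 9605 in 1XIMO and 7070, 7428 and 3432 in 6XIMO. Every stressed array thus lay above every Control array, and the 2 stressed groups overlapped. In rank terms, the probe set moved from the 24.7 to 35.1 percentile of its array in Control to the 79.3 to 91.7 percentile in the stressed arrays. The log2 level was 8.63 ± 0.24 (SD, n = 3) in Control, 13.00 ± 0.34 in 1XIMO and 12.47 ± 0.62 in 6XIMO. The log2 fold change was 4.37 ± 0.33 (SE) for 1XIMO and 3.84 ± 0.33 for 6XIMO against Control. As geometric mean intensities these differences were 21.6-fold and 14.9-fold. By log2 fold change Ucn2 stood 24th of 11287 genes in 1XIMO and 28th in 6XIMO. The order of the levels was Control, 6XIMO, 1XIMO, and the last 2 differed by -0.54 ± 0.33 (-0.18 without 6XIMO replicate 3).

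Probe set 1369619_at, designed on the Ucn2 reference mRNA, read 134.7, 175.7 and 88.51 in Control. It read 2348, 3904 and 2961 in 1XIMO, and 232.4, 1212 and 1019 in 6XIMO. The 6XIMO arrays lay above all Control arrays and below all 1XIMO arrays, with 6XIMO replicate 1 close to Control. On 6XIMO replicate 1 this probe set stood at the 13.1 percentile of the array, as on Control replicate 1, while 1385450_at stood there at the 91.5 percentile. The log2 fold change was 4.39 ± 0.61 for 1XIMO, 2.24 ± 0.61 for 6XIMO against Control and -2.15 ± 0.61 for 6XIMO against 1XIMO. Without 6XIMO replicate 1, which has the highest actin 3′/5′ ratio, the last 2 values were 2.96 and -1.42.

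The 2 Ucn2 probe sets differed by 0.01 in their log2 fold change for 1XIMO and by 1.60 for 6XIMO. Among 3249 genes with 2 or more probe sets past the filter on low values, the median range between probe sets was 0.29 for 1XIMO and 0.94 for 6XIMO. A range as wide as that of Ucn2 was found in 24.4% of them for 6XIMO. A lower Ucn2 level after 6 sessions than after 1, without overlap of the groups, thus rested on 1369619_at. On 1385450_at the groups overlapped, and the difference was smaller but negative under 19 of 19 alternatives, from -1.32 to -0.18.

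**Figure D2:**
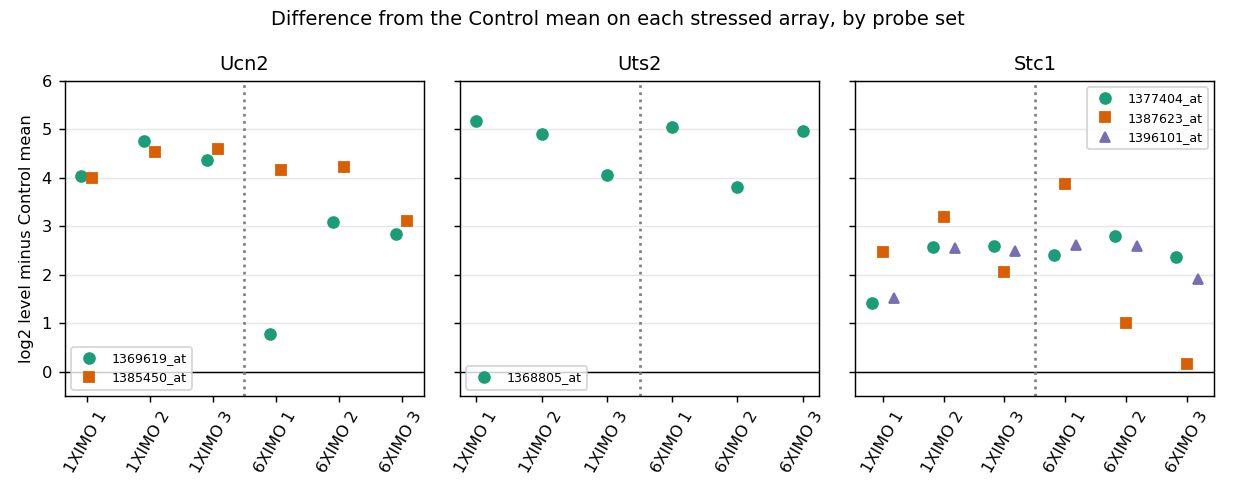
Difference of each stressed array from the Control mean, in log2 units, for every probe set of Ucn2, Uts2 and Stc1. Colours and symbols mark probe sets, and the dotted line parts 1XIMO from 6XIMO. The 2 Ucn2 probe sets lie together on the 1XIMO arrays and are 4.16 and 0.78 above Control on 6XIMO replicate 1.

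Uts2 was dim in Control and about as high after 6 sessions as after 1. Its probe set 1368805_at read 115.6, 90.39 and 91.96 in Control. It read 4115, 3413 and 1917 in 1XIMO and 3822, 1602 and 3563 in 6XIMO. All 6 stressed arrays lay far above the 3 Control arrays, and the 2 stressed groups overlapped across their whole range. The percentile in the array was 11.0 to 11.7 in Control, 66.5 to 81.7 in 1XIMO and 66.5 to 81.6 in 6XIMO. The log2 level was 6.84 ± 0.17 (SD, n = 3) in Control, 11.56 ± 0.57 in 1XIMO and 11.46 ± 0.69 in 6XIMO. The log2 fold change was 4.72 ± 0.44 for 1XIMO and 4.61 ± 0.44 for 6XIMO against Control, or 30.4-fold and 28.3-fold as geometric mean intensities. Uts2 stood 18th of 11287 genes in 1XIMO and 12th in 6XIMO. The stressed groups differed by -0.10 ± 0.44, and this value ran from -0.42 without 1XIMO replicate 3 to 0.30 without 6XIMO replicate 2. At Control levels this dim, the constant of 16 added before taking logs lowers the fold change, which with a constant of 64 was 4.23 for 1XIMO.

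Stc1 was read by 3 probe sets, all higher in 1XIMO than in Control and 2 of them without overlap in 6XIMO. Its brightest probe set, 1377404_at, designed on an expressed sequence tag, stood at the 51.8 to 53.3 percentile of the array in Control. It read 1203, 1120 and 993.3 in Control, 2979, 6635 and 6733 in 1XIMO, and 5937, 7712 and 5713 in 6XIMO. All stressed arrays lay above Control, with 1XIMO replicate 1 the lowest of them. The log2 level was 10.13 ± 0.14 (SD, n = 3) in Control, 12.32 ± 0.67 in 1XIMO and 12.65 ± 0.24 in 6XIMO. The log2 fold change was 2.20 ± 0.31 for 1XIMO and 2.52 ± 0.31 for 6XIMO, or 4.63-fold and 5.80-fold, and Stc1 stood 153rd and 110th of 11287 genes. The stressed groups differed by 0.32 ± 0.31, and without 1XIMO replicate 1 by -0.06.

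A second tag-based probe set of Stc1, 1396101_at, gave a like picture at a lower brightness. It read 582.3, 528.5 and 428.2 in Control, 1499, 3087 and 2959 in 1XIMO, and 3204, 3152 and 1956 in 6XIMO. Its log2 fold changes were 2.20 ± 0.35 and 2.37 ± 0.35, which differ from those of 1377404_at by 0.00 and 0.15. The groups did not overlap with Control in either case, and the low array of 1XIMO was again replicate 1.

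The third probe set of Stc1, 1387623_at, designed on its reference mRNA, was the only one of the 6 below the filter on low values. It read 259.2, 67.81 and 57.88 in Control, 648.1, 1076 and 479.3 in 1XIMO, and 1742, 223.7 and 117 in 6XIMO. The 1XIMO arrays lay above Control, while 6XIMO overlapped with Control because its replicates 2 and 3 lay below Control replicate 1. By contrast, 6XIMO replicate 1 was the highest of all 9 arrays. The log2 fold change was 2.57 ± 0.94 for 1XIMO and 1.68 ± 0.94 for 6XIMO. The 6XIMO value was 0.58 without 6XIMO replicate 1 and 2.44 without 6XIMO replicate 3. As log2 differences from the Control mean on 6XIMO replicate 1, the reference-mRNA probe set of Ucn2 was the lower of its gene (0.78 against 4.16). That of Stc1 was the highest of its gene by this measure (3.88 against 2.41 and 2.62). In intensity it was still the dimmest of the Stc1 probe sets there (1742 against 5937 and 3204).

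The genes whose levels were most like those of each member were taken by Pearson's r over the 9 arrays, which all share the contrast between unstressed and stressed samples. For Ucn2 they were the immediate early gene Ier2 (r = 0.991), Calca, which encodes calcitonin and the peptide CGRP (0.986), Zfp536 (0.985), the insulin receptor substrate Irs2 (0.984) and Cgrrf1 (0.979). For Uts2 they were the transcription factor Scx (0.991), Aff1 (0.987), Lratd1 (0.983), Cgrrf1 (0.983) and the transcriptional repressor Nfil3 (0.982). For Stc1 they were Rell1 (0.991), the endothelial nitric oxide synthase Nos3 (0.987), Osbpl6 (0.982), Higd1a (0.979) and Baiap2 (0.977). Cgrrf1 was thus in the lists of both peptides. Beside Nos3, the summed intensity of the endothelial markers (6 of 7 measured) was 45600 to 54000 in Control, 38300 to 42900 in 1XIMO and 40400 to 45600 in 6XIMO. Whether endothelial content has a part in the Nos3 values was not tested. The log2 fold changes of the genes most like the members differed widely in size. They ran from 5.07 and 4.66 for Calca in 1XIMO and 6XIMO to 0.43 and 0.56 for Higd1a. Without 6XIMO replicate 1, only 1 of the 5 stayed among the top 5 of each member, and 5 of 5 stayed among the top 50.

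Few partners of the 3 proteins could be tested. Of the other CRF peptides and their binding protein, only urocortin (Ucn) passed the filter on low values. Ucn read 397, 365 and 461 in Control, 657, 399 and 428 in 1XIMO, and 617, 337 and 252 in 6XIMO. The 3 groups overlapped, and no difference passed the limma test (0.24 ± 0.49, adjusted p = 0.905 for 1XIMO and -0.11 ± 0.49, adjusted p = 0.895 for 6XIMO). Crh, the CRF gene itself, and Crhbp, which binds and sequesters CRF, were below the filter. In the fit without a filter neither passed the threshold, with adjusted p of at least 0.287. Uts2r, the urotensin receptor, was dim on all arrays, with intensities between 7.51 and 96.9, and none of its differences passed either.

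Of the stanniocalcin and PAPP-A list, 5 of 8 genes were tested. None passed in 1XIMO against Control, where 4.2% of all genes rose and 5.31% fell. In 6XIMO 0 rose and 1 fell, where 9.36% of all genes rose and 14.9% fell. The gene that fell was Igf2, an IGF that is abundant in fetal tissue. Its brightest probe set read 812, 2040 and 905 in Control, 1170, 1720 and 1290 in 1XIMO, and 341, 466 and 249 in 6XIMO. The 6XIMO arrays lay below all others, and the difference was -1.70 ± 0.42 from Control (limma, adjusted p = 0.0179) and -1.96 ± 0.42 from 1XIMO (adjusted p = 0.023). The first call was lost without Control replicate 2 and the second without any 1XIMO array or 6XIMO replicate 3. Its 3 other probe sets were below the filter and did not fall, with log2 fold changes of 0.67 to 1.52 for 6XIMO against Control, none past the threshold.

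The other tested genes of that list did not pass. For 6XIMO against Control, Igf1 was at 1.31 ± 0.77 (limma, adjusted p = 0.245) and its receptor Igf1r at 0.55 ± 0.24 (0.12). The other 2 Igf1 probe sets were at 0.65 ± 0.69 and -1.08 ± 0.76 in a fit of all probe sets, so that the 3 differed in sign, and neither passed. The binding proteins Igfbp4, which PAPP-A cleaves, and Igfbp5 were at -0.63 ± 0.42 (0.312) and -0.86 ± 0.40 (0.148). In the fit of all probe sets, the other Igfbp5 probe sets past the filter ranged widely, at -0.34 ± 0.37, -2.30 ± 0.77 and -2.49 ± 0.99. The Igfbp5 probe set below the filter was at -0.05 ± 0.76, and none of these passed. Without 6XIMO replicate 1 both binding proteins passed, at -1.14 (adjusted p = 0.00587) and -1.13 (0.0308). The paralogue Stc2 and the protease Pappa2 were below the filter and did not pass in the fit without one.

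**Figure D3:**
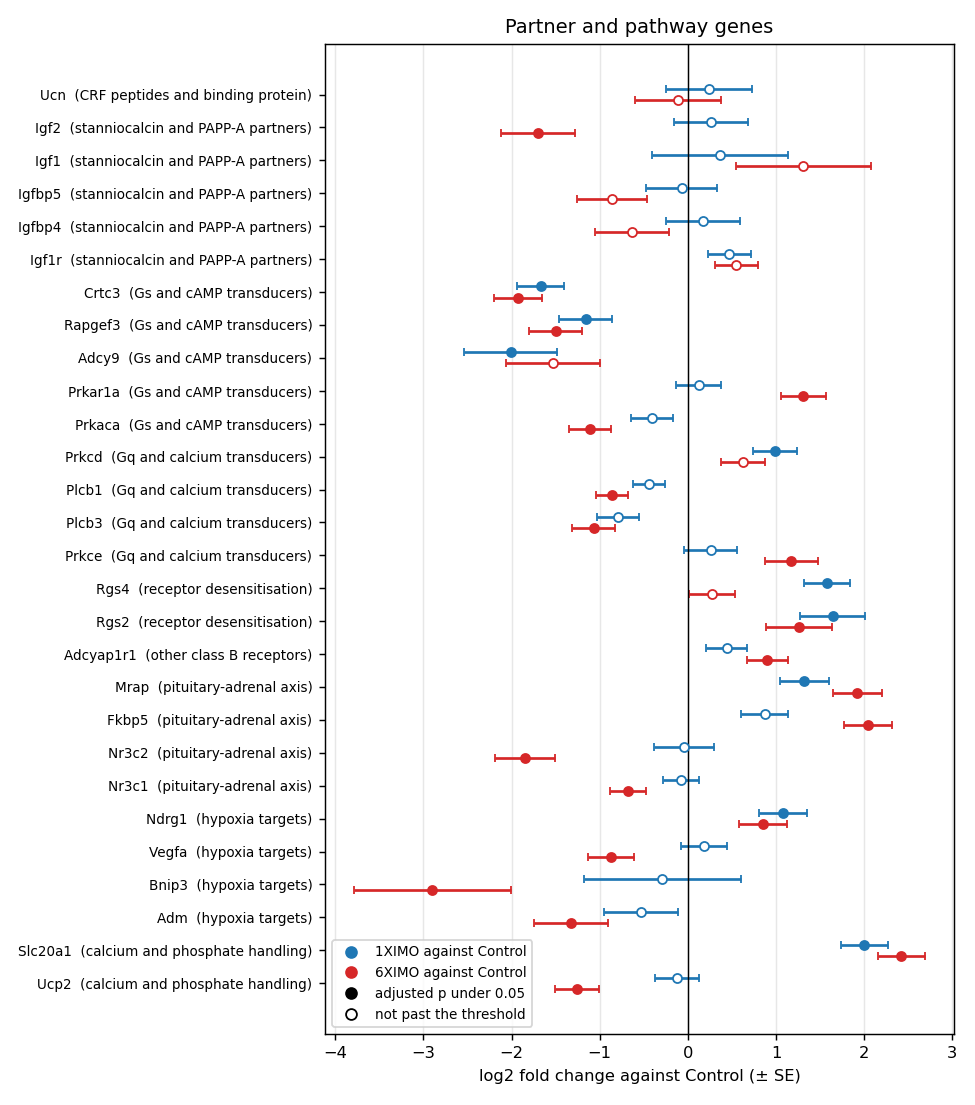
Log2 fold change against Control (± SE of the limma fit, 3 arrays per group) of tested partner and pathway genes named by the rule, with their lists in brackets. Genes named after their values were seen and genes below the filter are not shown. Blue is 1XIMO, red is 6XIMO, and filled points have an adjusted p under 0.05. Slc20a1 lies at 2.00 and 2.42, and Igf2 at 0.26 and -1.70.

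Genes that carry the signal of a Gs-coupled receptor such as Crhr2 mostly did not pass, and those that did went in both directions. Of 20 tested, 0 rose and 3 fell in 1XIMO (4.2% and 5.31% of all genes), and 3 rose and 4 fell in 6XIMO (9.36% and 14.9% of all genes). Crtc3, a coactivator of the cAMP-responsive factor CREB, fell by 1.67 ± 0.27 on the log2 scale in 1XIMO (limma, adjusted p = 0.0047) and fell by 1.93 ± 0.27 in 6XIMO (0.00147). Rapgef3, the cAMP sensor Epac1, fell by 1.16 ± 0.30 (0.0386) in 1XIMO and fell by 1.50 ± 0.30 (0.00715) in 6XIMO. The adenylyl cyclase Adcy9 fell by 2.01 ± 0.53 in 1XIMO (0.0415, or 0.0656 with the replicate number as a block), with -1.53 ± 0.53 in 6XIMO (0.0611, or 0.00035 without 6XIMO replicate 1). Within protein kinase A, the regulatory subunit Prkar1a rose by 1.31 ± 0.25 in 6XIMO (0.00594) and the catalytic subunit Prkaca fell by 1.11 ± 0.24 (0.0104). In 6XIMO the others past the threshold, named after their values were seen, were the cyclase Adcy4 and the kinase subunit Prkar1b among the rises and the CREB coactivator Crtc1 among the falls. The 1XIMO call of Rapgef3 was lost without Control replicate 1 or 3, any 1XIMO array or 6XIMO replicate 3. That of Adcy9 was lost without any Control or 1XIMO array, and that of Prkaca without Control replicate 3.

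Among genes that carry a Gq and calcium signal, through which Uts2r acts, calls were again found in both directions. Protein kinase C delta (Prkcd) rose by 0.99 ± 0.25 in 1XIMO (limma, adjusted p = 0.033, or 0.0653 with the replicate block), and the epsilon form (Prkce) by 1.17 ± 0.30 in 6XIMO (0.0192). In 6XIMO the phospholipase Plcb1 fell by 0.86 ± 0.18 (0.00924) and Plcb3 fell by 1.07 ± 0.24 (0.0124). Another gene that fell in 6XIMO, named after its value was seen, was Gnaq, the alpha subunit of Gq. Calls were lost for Prkcd without Control replicate 2 or 3 or any 1XIMO array, for Prkce without Control replicate 3, and for Plcb3 without Control replicate 2 or 3.

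Of 7 tested genes that damp receptors of this kind, 2 rose and 0 fell in 1XIMO, beside 4.2% and 5.31% of all genes. In 6XIMO 1 rose and 0 fell, beside 9.36% and 14.9%. Both risers are regulators of G protein signalling, which speed the shut-off of G proteins. Rgs4 rose by 1.58 ± 0.26 in 1XIMO (limma, adjusted p = 0.0054) and was at 0.27 ± 0.26 in 6XIMO (0.48). The difference between the stressed groups itself passed, at -1.31 ± 0.26 (0.0182), and was lost without 1XIMO replicate 2 or 3. Rgs2 rose by 1.64 ± 0.37 (0.0239, or 0.0536 with the replicate block) and by 1.26 ± 0.37 (0.0364). Its first call was lost without Control replicate 2 or 3 or 1XIMO replicate 1 or 2, and its second without any Control array, 1XIMO replicate 2 or 6XIMO replicate 2 or 3. Of the other class B receptors, the family of Crhr1 and Crhr2, 7 of 13 were tested. Adcyap1r1, the receptor for the peptide PACAP that splanchnic nerves release onto chromaffin cells, rose in 6XIMO by 0.90 ± 0.23 (0.0188), a call lost without Control replicate 1 or 3 or 6XIMO replicate 2. The other 6 did not pass in any comparison of the main fit. The 6XIMO count was thus 1 rise and 0 falls of 7, beside 9.36% and 14.9% of all genes. Without 6XIMO replicate 1 it was 1 and 4, beside 17.6% and 30.7%. Against 1XIMO it was then 0 and 4, beside 15.1% and 17.3%.

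CRF itself drives the pituitary-adrenal axis, of which 9 genes were tested. In 1XIMO 1 rose and 0 fell, beside 4.2% and 5.31% of all genes, and in 6XIMO 3 rose and 2 fell, beside 9.36% and 14.9%. Mrap, the accessory protein that brings the ACTH receptor to the cell surface, rose by 1.32 ± 0.28 in 1XIMO (limma, adjusted p = 0.0166) and by 1.92 ± 0.28 in 6XIMO (0.00173). Fkbp5, a chaperone partner induced by glucocorticoids, was at 0.87 ± 0.27 in 1XIMO (0.0757) and rose by 2.04 ± 0.27 in 6XIMO (0.00108). In 6XIMO the mineralocorticoid receptor Nr3c2 fell by 1.85 ± 0.34 (0.00474) and the glucocorticoid receptor Nr3c1 fell by 0.68 ± 0.20 (0.0356). The third riser in 6XIMO, named after its value was seen, was Hsd11b2, which inactivates glucocorticoids. Mrap is active in cortex cells, and the summed cortex markers, as given above, were higher in 6XIMO and overlapped with Control in 1XIMO. Whether cortex content has a part in the Mrap values was not tested. The 1XIMO call of Mrap was lost without Control replicate 2 or 3 or 1XIMO replicate 1 or 2. That of Nr3c1 was lost without Control replicate 1 or 2, any 1XIMO array or 6XIMO replicate 2 or 3. Fkbp5 passed in 1XIMO when 6XIMO replicate 1 was left out (0.00355).

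Stc1 is known as a target of hypoxia, so other hypoxia targets were counted beside it. Of 9 tested, 1 rose and 0 fell in 1XIMO (4.2% and 5.31% of all genes), and 1 rose and 3 fell in 6XIMO (9.36% and 14.9% of all genes). Ndrg1 rose by 1.08 ± 0.27 (limma, adjusted p = 0.0345) and by 0.85 ± 0.27 (0.0461). In 6XIMO the angiogenic factor Vegfa fell by 0.87 ± 0.26 (0.0385), and the peptide adrenomedullin (Adm) fell by 1.33 ± 0.42 (0.0452). The mitophagy receptor Bnip3 fell by 2.90 ± 0.89 (0.0398), and was at -1.54 without 6XIMO replicate 1. Each of these 5 calls was lost without any Control or 1XIMO array. Those of Ndrg1 in 6XIMO and of Adm were lost without 6XIMO replicate 3 also, and that of Ndrg1 in 6XIMO without 6XIMO replicate 2.

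Stanniocalcins are known for calcium and phosphate balance, and 3 of 9 genes of that list were tested. The sodium-phosphate cotransporter Slc20a1 rose by 2.00 ± 0.27 in 1XIMO (limma, adjusted p = 0.002) and by 2.42 ± 0.27 in 6XIMO (0.000548), calls kept under every alternative tried. Ucp2, a mitochondrial carrier induced by stanniocalcin in some cells, was at -0.12 ± 0.25 in 1XIMO (0.911) and fell by 1.26 ± 0.25 in 6XIMO (0.00728).

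Over the 10 lists, 76 genes were tested. In 1XIMO 6 rose (7.89%) and 3 fell (3.95%), beside 4.2% and 5.31% of all genes. In 6XIMO 11 rose (14.5%) and 15 fell (19.7%), beside 9.36% and 14.9%. In 6XIMO against 1XIMO 3 were higher (3.95%) and 6 lower (7.89%), beside 5.21% and 4.63% of all genes. Without 6XIMO replicate 1 the 6XIMO counts were 16 and 28 of 75, beside 17.6% and 30.7% of all genes. The split between higher and lower genes depended on the scaling. Against Control it was 474 to 599 for 1XIMO and 1057 to 1681 for 6XIMO over all genes, and with quantile normalization 458 to 345 and 1038 to 951. After centring each array on its median, which moved the all-gene medians to 0.00 and -0.06, 9 of the 37 calls of the list genes named by the rule, over the 3 comparisons, were kept. These were Crtc3, Rapgef3, Prkar1a, Prkce, Mrap and Fkbp5 in 6XIMO, Adcy9 in 1XIMO, and Slc20a1 in both. With quantile normalization 25 of the 37 were kept. Those lost included Igf2 and Prkar1a in both comparisons with 6XIMO, Rapgef3 in 1XIMO, Rgs2, Nr3c1, Bnip3 and Adm in 6XIMO against Control, and Fkbp5 and Nr3c2 in 6XIMO against 1XIMO.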

How the data were processed

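RNA of 9 samples, 3 per group, was measured on Affymetrix rat arrays, labelled and run by the manufacturer per the labels. The deposited table holds 1 linear intensity per probe set and array. The authors had scaled each array as a whole, since the trimmed means, with 2% left out at each end, were 2500.6 to 2501. For the summarisation of probes, the background step and the scale no method was given in the sources used here. No detection calls were used, and the number of arrays limits the precision.

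Of 31099 probe sets, 57 were array controls, 20826 had 1 gene symbol in the platform annotation, 436 had several and 9780 had none; the last 2 kinds were not used. Values were taken as log2(intensity + 16), so that fold changes of dim genes are understated. The dimmest 30% of probe sets were left out, the brightest probe set stood for each gene, and 11287 genes were fitted in limma 3.58.1 (R 4.3.3; lmFit, eBayes with trend) over all 9 arrays, with 6 residual degrees of freedom. Tests were two-sided with Benjamini-Hochberg adjustment over all genes, at 0.05. Values for single probe sets, and for genes below the filter, came from the same fit on all 20826 probe sets. The members and the gene lists were chosen with earlier results of these data known.

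Named genes are all members, all measured partners in the CRF, urotensin and stanniocalcin lists, up to 4 genes per contrast with the smallest adjusted p among those past the threshold in each other list, and the 5 genes most like each member by Pearson's r. Some results of 1 list are not reported here. The fit was tested on simulated data with independent noise and known changes in 1XIMO only. Such data do not cover a deviating array such as 6XIMO replicate 1, or samples paired by replicate number. Replicate numbers are shared between the groups. Deviations from the group means of samples with the same number correlated at 0.51, 0.36 and 0.25 between Control and 1XIMO. These numbers may thus pair the samples, though samples with different numbers were not compared. The main fit held no term for the replicate number, so its p-values leave such a pairing out. The number entered only in the replicate block, as an alternative. Between 6XIMO and the other groups the deviations correlated at 0.06 to 0.16, and the numbers were not taken as pairs.

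Alternatives were quantile normalization, median centring, constants of 1 and 64, no filter or a filter of 50%, every probe set by itself, a replicate block, array weights, leaving out each array, and quantile normalization without 6XIMO replicate 1. The check of the genes most like each member without that array was chosen after seeing the data. Promoters came from RefSeq (GRCr8). No genome build is named with the intensities.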

Additional observations from a re-analysis of the deposited data

Results flagged for a closer look

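For 7 pathway genes named by the rule the responses to 6 sessions and to 1 session differed in a test of the difference itself (limma, 6XIMO against 1XIMO, adjusted over 11287 genes). Each is given as a log2 difference ± SE with 3 arrays per group, and none has an explanation tested here. Fkbp5 was higher after 6 sessions by 1.17 ± 0.27 (adjusted p = 0.0276), and Prkar1a by 1.19 ± 0.25 (0.0215). Igf2 was at -1.96 ± 0.42 (0.023) and Nr3c2 at -1.81 ± 0.34 (0.0148). Rgs4 was at -1.31 ± 0.26 (0.0182), Ucp2 at -1.14 ± 0.25 (0.0251) and Vegfa at -1.06 ± 0.26 (0.036). The same test was passed by Rapgef4, lower after 6 sessions, and Hsd11b2, higher. Both were picked out after seeing their values, and their single results were not followed under the alternatives. None of the 7 differences held under every alternative: each was lost without 1XIMO replicate 2 and without 1XIMO replicate 3. Groups of 3 arrays are too small for a test of single arrays far from the rest.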

How the results depend on the processing

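The log2 fold changes of the 6 probe sets of Ucn2, Uts2 and Stc1 in 3 comparisons were recomputed under 19 alternatives. Of 342 values, 333 moved by less than the spread between replicates, 9 by more, and 0 changed the sign of a difference from Control. Among the list genes named by the rule, 6 of 37 calls held under every alternative and 31 were lost under at least 1, and of 50 results that did not pass, 26 passed under at least 1. For list genes outside the rule, single results were not followed under the alternatives. They entered only the counts per list with quantile normalization, with median centring and without 6XIMO replicate 1. Some differences of list genes that did not pass before or after changed sign, such as Adcy9, Rgs2 and Mrap in 6XIMO against 1XIMO and Igf1 in 1XIMO. A change of sign to a value past the threshold was found only for Slc20a1 in 6XIMO against 1XIMO, from 0.42 to -0.71 (adjusted p = 0.0399) with quantile normalization and to -0.67 (0.00528) with quantile normalization and 8 arrays. Counts of genes called over all genes moved more. For 1XIMO against Control the count was 1073, and it was 225 with median centring, 4498 with array weights, 3411 with quantile normalization without 6XIMO replicate 1, and 362 to 3410 when 1 array was left out. For 6XIMO against Control it was 2738, and 689, 6555 and, with 1 array left out, 1380 to 5461. For 6XIMO against 1XIMO it was 1111, and 626 with quantile normalization, 60 with median centring, 5588 with array weights, 2489 with quantile normalization without 6XIMO replicate 1, and 0 to 3664 with 1 array left out. The 0 came without 1XIMO replicate 3, where limma gave 2326 genes at an unadjusted p under 0.05, and 35 were called without 1XIMO replicate 2. The cause was not tested. With a replicate block the counts were 977, 2741 and 943, and 7 of the 37 list calls were lost: Adcy9, Prkcd and Rgs2 in 1XIMO, Rgs2, Vegfa and Adm in 6XIMO, and Vegfa between the stressed groups. Signal over background limits the dim probe sets, such as Stc1 1387623_at, Uts2r, Crh and Stc2.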

Other observations

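On 6XIMO replicate 1 alone, 2 partner genes that were dim on the other 8 arrays read far higher. Crh read 2210 there and 23.7 to 205 elsewhere, and Stc2, the paralogue of Stc1, read 1900 there and 35.2 to 85.2 elsewhere. One of the 2 probe sets of Pappa2 read 2580 there and 23.7 to 651 elsewhere. The median intensity of 6XIMO replicate 1 was 1583, the highest of any array. Within it, the Crh, Stc2 and Pappa2 values stood at the 63.7, 57.5 and 69.8 percentile. Its lowest intensity and its actin 3′/5′ ratio were also the highest of any array, as given above.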
